A study of Homo sapiens with 36 samples.

Results

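The genes described here are 10 genes of squamous differentiation, SPRR1A, SPRR1B, SPRR2A, SPRR2D, SPRR2E, SPRR2F, SPRR3, IVL, TGM1 and CNFN, out of 60725 Ensembl genes in the deposited tables. They were chosen by name as components of the cornified envelope, with results of these same libraries already known, so their changes are described and are not independent evidence for a pattern. RNA was measured in 36 libraries, 2 for each of 18 groups. The first line, MCF-10A ER-Src, derives from immortalised mammary epithelium and carries v-Src fused to the ligand-binding domain of the estrogen receptor. In this line, control siRNA (Ctrli) or siRNA pools against YAP (YAPi), TAZ (TAZi), STAT3 (STAT3i) or JUNB (JUNBi) were combined with ethanol (ETH, labelled non-transformed) or tamoxifen (TAM, labelled transformed), which gave 10 groups. The treatment text in the labels names AZD0530, a Src family kinase inhibitor, beside tamoxifen as used to induce transformation, and gives no time, and every ER-Src group carries the inducible v-Src. MDA-MB-231, a triple-negative breast cancer line, gave 8 groups in 2 sets with separate controls: Ctrli, YAPi, TAZi, YAPi_TAZi and TEADi in set 1, and Ctrli, JUNBi and STAT3i in set 2. Each line is 1 established cell line, and the labels do not say whether the 2 libraries of a group came from separate cultures, so the p-values measure only the spread between these libraries.

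The cornified envelope is a sheet of cross-linked protein that forms under the plasma membrane of the outermost cells of stratified epithelia. Involucrin (IVL) is laid down early as a scaffold, small proline-rich proteins (SPRRs) serve as cross-bridges between other envelope proteins, and transglutaminase 1 (TGM1) is the membrane-bound enzyme that joins them through glutamine and lysine side chains. Cornifelin (CNFN) is another envelope constituent. Breast epithelium does not normally cornify, and MCF-10A cells have basal epithelial features. In the ER-Src libraries the basal keratin KRT5 was between 1012 and 2622 TPM (a level corrected for transcript length and library size) and the epithelial cadherin CDH1 between 6.31 and 20.5 TPM. In the 16 MDA-MB-231 libraries KRT5 did not exceed 11.5 TPM and CDH1 did not exceed 1.03 TPM. The mesenchymal filament VIM was between 369.2 and 2591 TPM there and between 183.7 and 337.7 TPM in ER-Src. The basal markers KRT14 and TP63 also separated the lines. KRT14 was 48.3 to 434.4 TPM in ER-Src and at most 1.04 TPM in MDA-MB-231. TP63 was 1 to 6.36 TPM in ER-Src and at most 0.27 TPM in MDA-MB-231. EPCAM overlapped, at 5.24 to 31.3 TPM in ER-Src and 3.1 to 17.4 TPM in MDA-MB-231, and so did FN1. Against ER-Src (2.37 to 5.74 TPM), ZEB1 was higher in MDA-MB-231 set 1 (6.57 to 23.4 TPM) and lower in set 2 (0.82 to 1.44 TPM).

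Of the 10 genes, 8 lie on chromosome 1 within chr1:152908546-153113516 (GRCh38, GENCODE release 44), a span of 205 kb in the epidermal differentiation complex. TGM1 is at chr14:24249114-24264432 and CNFN at chr19:42387019-42390297, both on the minus strand. The SPRR2 coding sequences are shown because they are nearly the same, which limits how far a read can be given to 1 of them. Each is a single coding exon of 219 bases on the minus strand, printed 5′ to 3′ from the reference, with capitals marking the bases that differ from SPRR2D.
SPRR2D (chr1:153040128-153040346): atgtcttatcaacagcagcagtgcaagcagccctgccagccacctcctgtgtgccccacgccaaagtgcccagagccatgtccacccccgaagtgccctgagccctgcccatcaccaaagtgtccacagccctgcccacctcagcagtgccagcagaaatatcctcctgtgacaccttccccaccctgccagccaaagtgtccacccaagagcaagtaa
SPRR2A (chr1:153056517-153056735): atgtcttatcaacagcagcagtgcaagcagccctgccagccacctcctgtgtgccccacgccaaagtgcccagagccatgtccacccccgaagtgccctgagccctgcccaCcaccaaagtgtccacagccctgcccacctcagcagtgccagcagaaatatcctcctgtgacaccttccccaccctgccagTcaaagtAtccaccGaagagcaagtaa
SPRR2E (chr1:153093533-153093751): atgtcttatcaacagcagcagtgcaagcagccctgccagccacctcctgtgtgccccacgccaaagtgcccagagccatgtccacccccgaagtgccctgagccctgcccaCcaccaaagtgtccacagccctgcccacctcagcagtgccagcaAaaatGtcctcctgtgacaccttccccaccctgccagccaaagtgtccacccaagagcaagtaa
SPRR2F (chr1:153112515-153112733): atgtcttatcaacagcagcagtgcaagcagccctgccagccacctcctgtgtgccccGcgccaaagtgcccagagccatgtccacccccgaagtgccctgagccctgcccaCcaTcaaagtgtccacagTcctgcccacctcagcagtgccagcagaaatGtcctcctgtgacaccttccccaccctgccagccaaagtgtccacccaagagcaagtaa
SPRR2A differed from SPRR2D at 4 of the 219 positions, SPRR2E at 3 and SPRR2F at 5, which left 98.2%, 98.6% and 97.7% identity. Over whole transcripts, 34.4% of the 50-base windows of SPRR2A, 33.8% of those of SPRR2D, 25.4% of those of SPRR2E and 18.4% of those of SPRR2F also occurred in another gene. For SPRR1A and SPRR1B, which share windows with each other, the shares were 7.85% and 8.25%, and for SPRR3, IVL, TGM1 and CNFN they were 0%. The SPRR2 genes are therefore also given as the sum of the 4, within which the division of shared reads does not matter, although SPRR2B, SPRR2C and SPRR2G share windows with them too.

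Promoters of 4 of the genes are shown because the study depleted factors that act through AP-1, STAT3 or TEAD sites. RefSeq windows (GRCh38.p14, 250 bases before to 50 after the annotated start) were found for 7 of the 10 genes, namely IVL, SPRR1A, SPRR1B, SPRR2A, SPRR2F, SPRR3 and CNFN. Capitals mark matches to the AP-1 motif TGAGTCA or the TEAD motif CATTCC on either strand, the latter read here as GGAATG.
IVL (chr1:152908296-152908595, plus strand): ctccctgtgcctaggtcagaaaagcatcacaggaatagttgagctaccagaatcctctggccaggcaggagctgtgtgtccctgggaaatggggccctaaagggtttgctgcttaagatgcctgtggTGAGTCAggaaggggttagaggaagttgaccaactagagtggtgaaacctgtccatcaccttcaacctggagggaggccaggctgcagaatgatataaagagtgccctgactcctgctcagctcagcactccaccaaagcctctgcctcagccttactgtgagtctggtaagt
SPRR1B (chr1:153030953-153031252, plus strand): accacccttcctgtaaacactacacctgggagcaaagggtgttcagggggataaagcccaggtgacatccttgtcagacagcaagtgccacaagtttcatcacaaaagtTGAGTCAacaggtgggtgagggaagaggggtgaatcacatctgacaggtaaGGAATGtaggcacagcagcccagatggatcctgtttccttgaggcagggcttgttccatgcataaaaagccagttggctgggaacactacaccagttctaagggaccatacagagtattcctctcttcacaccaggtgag
SPRR2A (chr1:153057463-153057762, minus strand): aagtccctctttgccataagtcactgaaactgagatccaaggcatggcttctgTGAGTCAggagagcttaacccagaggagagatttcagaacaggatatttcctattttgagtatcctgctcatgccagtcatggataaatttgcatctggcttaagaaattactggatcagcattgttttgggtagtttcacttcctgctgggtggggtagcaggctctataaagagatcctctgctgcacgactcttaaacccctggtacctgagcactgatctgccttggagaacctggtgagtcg
SPRR3 (chr1:153001499-153001798, plus strand): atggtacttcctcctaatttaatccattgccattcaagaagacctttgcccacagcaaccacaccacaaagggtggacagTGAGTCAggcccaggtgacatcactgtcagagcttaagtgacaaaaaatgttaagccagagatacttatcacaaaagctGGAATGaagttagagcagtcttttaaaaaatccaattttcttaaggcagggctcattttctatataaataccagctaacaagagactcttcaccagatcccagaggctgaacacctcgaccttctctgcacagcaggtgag
TGAGTCA occurred in 6 of the 7 windows, all but that of CNFN, against 4.95% of the 35116 promoters in the reference table. Its first base lay at −123 from the start in IVL, −108 in SPRR1A, −141 in SPRR1B, −197 in SPRR2A, −196 in SPRR2F and −170 in SPRR3. CATTCC occurred in 3 windows, at −87 in SPRR1A, −90 in SPRR1B and −91 in SPRR3, against 14% of all promoters. The STAT motif TTCNNNGAA, which reads the same on both strands, occurred in 0 of the 7 windows, against 7.66% of all promoters. No motif overlapped another in these windows, and a match is a description of the sequence, not a measurement of binding. All windows with a match come from the same span of chromosome 1, and those of SPRR2A and SPRR2F are much alike. They are therefore not independent promoters to set against the shares of all promoters.

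The ER-Src libraries held between 6416159 and 19153233 estimated counts over genes. In a single library, 3 counts corresponded to 0.157 CPM in the deepest and 0.468 CPM in the shallowest. The floor used for ratios was 3 counts over both libraries of a group, so it was lower per library. TPM is also affected by the very short genes: the 7721 genes shorter than 120 bases took 46.8% to 52.6% of all TPM in the YAPi libraries and 28.5% to 40.1% in the Ctrli libraries, so tests were run on counts. The median gap between gene length and the effective length used for TPM was 49.5 bases in every Ctrli, YAPi and TAZi library. It was 49.0 bases in every STAT3i and JUNBi library, and the effect of this difference on their comparisons with Ctrli was not tested. The targeted mRNAs were lower in their own knockdowns, YAP1 at 15.1% and 17.1% of the Ctrli mean TPM (ETH and TAM), WWTR1, which encodes TAZ, at 36.5% and 20.6%, STAT3 at 31.9% and 21.1%, and JUNB at 49.9% and 28.1%. Leukocyte PTPRC, endothelial PECAM1 and hepatocyte ALB did not exceed 0.78 TPM in any ER-Src library. In bulk RNA a larger share of differentiating cells and more RNA per cell cannot be told apart.

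The envelope precursors were highest after YAP depletion. All comparisons with Ctrli of 1 treatment share the same 2 control libraries. In TAM, 7 of the 10 genes, SPRR1A, SPRR1B, SPRR2A, SPRR2D, SPRR2E, SPRR3 and IVL, were higher in YAPi than in Ctrli at an adjusted p under 0.01 (DESeq2), where 10.7% of the genes tested were called, and 5.27% called higher. In ETH, 5 of the 10, SPRR1A, SPRR1B, SPRR2D, SPRR3 and IVL, were called higher, against 11.6% of the genes tested, and 5.11% called higher. Only 8 of the 10 genes had an adjusted p in TAM and 6 in ETH. SPRR1A, SPRR2D, SPRR3 and IVL had 0 counts in Ctrli TAM, so they passed the filtering through YAPi alone and could not be called lower. The shares over all genes tested are therefore given for scale and not as a test of the members. The median log2 fold change over the members with any count was 6.49 in TAM and 4.51 in ETH, while over all genes tested it was 0.01 and −0.00. TGM1 and CNFN were not called in either treatment, and SPRR2F had at most 1.21 counts in any of the 20 ER-Src libraries.

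**Figure D1:**
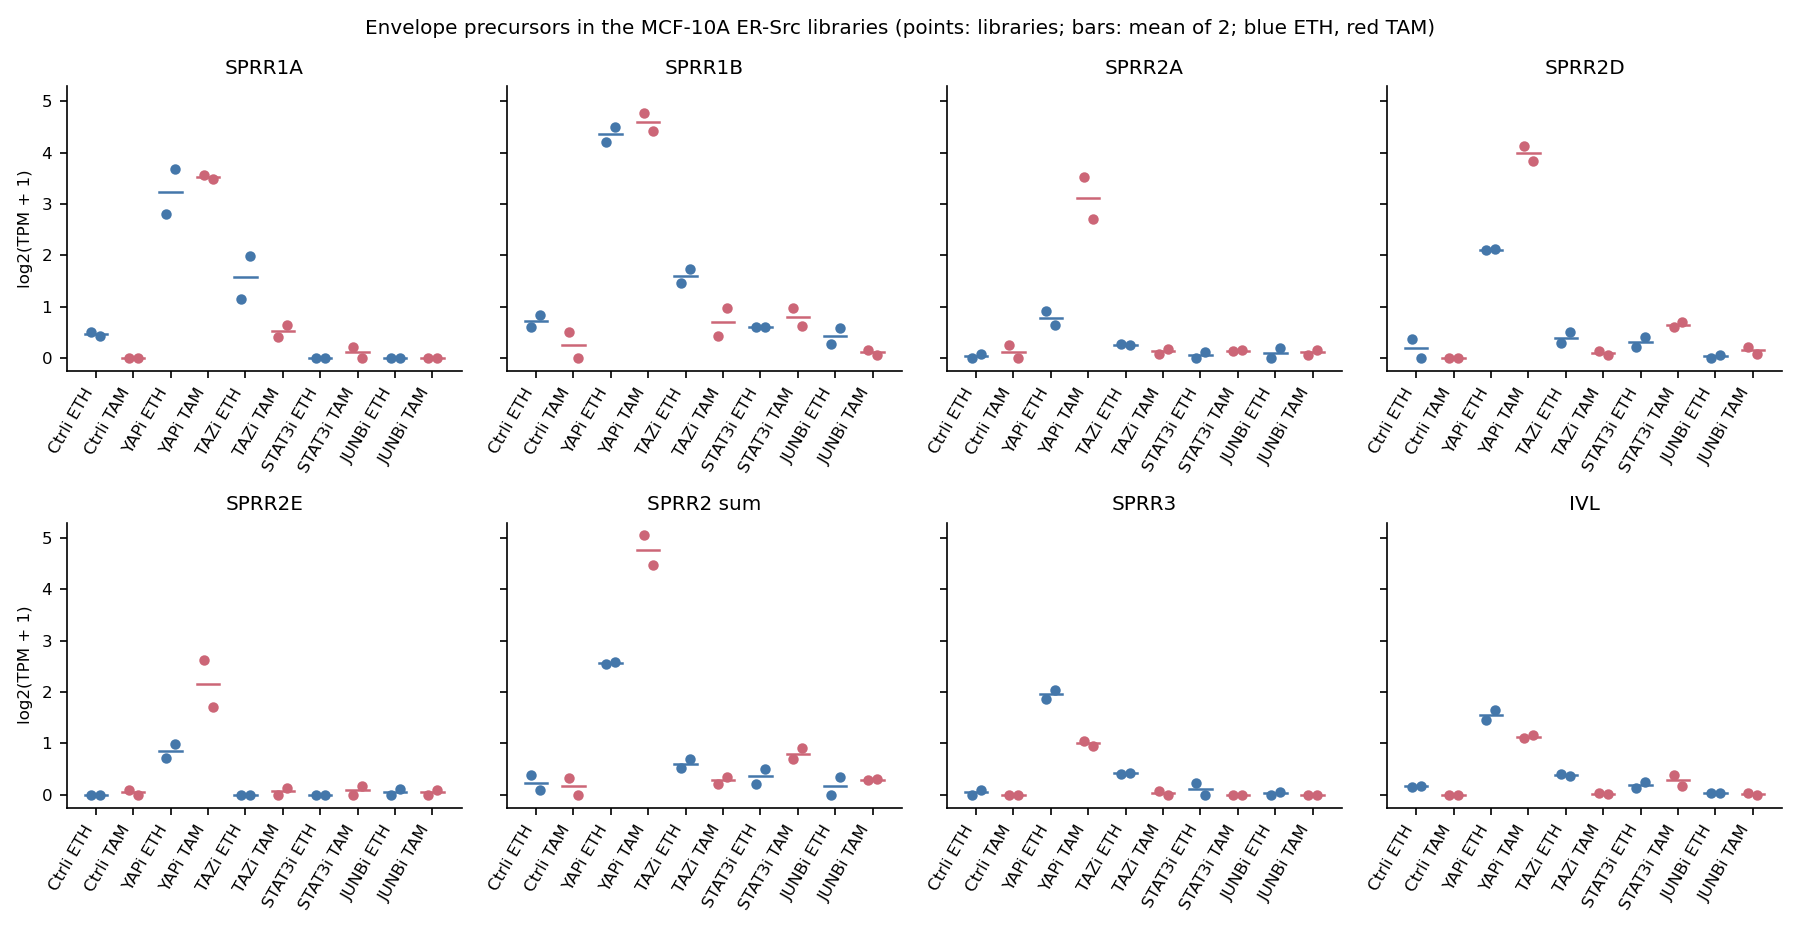
Level of each envelope precursor in the 20 MCF-10A ER-Src libraries as log2(TPM + 1), with 1 panel per gene and 1 for the sum of 4 SPRR2 genes. Points are libraries, bars the mean of 2, blue is ETH and red is TAM. The 4 YAPi libraries stand above the other 16 in every panel, and in the panels of the SPRR2 genes the 2 YAPi TAM libraries stand above the 2 YAPi ETH libraries.

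SPRR1B, one of the most widely used markers of squamous differentiation, was the most abundant precursor. It stood at 17.6 and 21.6 TPM in YAPi ETH and at 26.2 and 20.4 TPM in YAPi TAM. In Ctrli it was 0.52 and 0.8 TPM in ETH and 0.43 and 0 TPM in TAM, and in the 16 ER-Src libraries other than YAPi it did not exceed 2.31 TPM. The groups did not overlap. The log2 fold change of YAPi against Ctrli was 4.83 ± 0.44 (SE, n = 2 against 2) in ETH, with an adjusted p of 4e-26, and 6.49 ± 0.65 in TAM, with an adjusted p of 1e-20. From the summed counts, 952 against 6, the ratio in TAM was 87.2 (95% exact counting interval 39.9 to 238.2), an interval that covers counting error only. Between TAM and ETH within YAPi its count ratio was 1.37 (counting interval 1.24 to 1.51), which was not called (log2 fold change 0.40 ± 0.23, adjusted p 0.54).

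SPRR1A, its close paralog, followed the same order at a lower level. Its values were 5.97 and 11.8 TPM in YAPi ETH and 10.8 and 10.2 TPM in YAPi TAM, against 0.43 and 0.34 TPM in Ctrli ETH and 0 TPM in both Ctrli TAM libraries. TAZi ETH came next at 1.23 and 2.96 TPM. In ETH the SPRR1A log2 fold change was 4.67 ± 0.97 with an adjusted p of 3.5e-05, a call lost without Ctrli ETH replicate 1 (0.016) or YAPi ETH replicate 2 (0.086). In TAM the 170 counts of YAPi stood against 0 in Ctrli (adjusted p 9.7e-06), so that SPRR1A was at least 31.1-fold higher, taking 3 counts over the group as the floor, and this call was lost without Ctrli TAM replicate 1 (adjusted p 0.014). The posterior SD that the authors' program gives for the division of reads was 2.33 to 3.63 counts in the YAPi libraries, between 3.48% and 4.73% of the SPRR1A count.

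SPRR2A, SPRR2D and SPRR2E had higher levels in YAPi TAM than in YAPi ETH. SPRR2D stood at 3.29 and 3.35 TPM in YAPi ETH and at 16.5 and 13.4 TPM in YAPi TAM, and it was at 0.3 and 0 TPM in Ctrli ETH and 0 TPM in both Ctrli TAM libraries. SPRR2A stood at 0.9 and 0.56 TPM in YAPi ETH and at 10.5 and 5.53 TPM in YAPi TAM. SPRR2E stood at 0.63 and 0.97 TPM in YAPi ETH and at 5.15 and 2.25 TPM in YAPi TAM. For all 3 genes the 2 TAM values of YAPi lay above the 2 ETH values, and both YAPi groups lay above the 16 other ER-Src libraries, in which the highest values were 0.63 TPM for SPRR2D, 0.21 TPM for SPRR2A and 0.13 TPM for SPRR2E. SPRR2F was at 0 counts in 19 of the 20 libraries.

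Against Ctrli in TAM, SPRR2D was at least 124.5-fold higher in YAPi (680 counts against 0, adjusted p 9.9e-10). The SPRR2A ratio was 66.3 (362 counts against 3, counting interval 22.5 to 323.0, adjusted p 7.1e-09), and the SPRR2E ratio was 85.7 (156 counts against 1, counting interval 15.2 to 3407, adjusted p 0.00029). The SPRR2A call was lost without YAPi TAM replicate 2 (adjusted p 0.084). In ETH, SPRR2D was higher by 4.45 ± 0.90 on the log2 scale (adjusted p 2e-05), a call lost without Ctrli ETH replicate 2 (0.012), YAPi ETH replicate 1 (0.57) or YAPi ETH replicate 2 (0.69). SPRR2A and SPRR2E were too low in ETH for DESeq2 to give an adjusted p. Their summed counts there were 35 against 1 (ratio 25.3, counting interval 4.25 to 1027) and 33 against 0 (at least 7.95-fold higher).

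The sum of the 4 SPRR2 genes was 4.82 and 4.96 TPM in YAPi ETH and 32.1 and 21.1 TPM in YAPi TAM. In Ctrli it was 0.3 and 0.06 TPM in ETH and 0.26 and 0 TPM in TAM. Its log2 fold change of YAPi against Ctrli was 4.73 ± 0.78 in ETH (adjusted p 4.6e-08) and 7.42 ± 0.77 in TAM (adjusted p 2.3e-19). With all annotated SPRR2 genes summed, it was 4.61 ± 0.73 in ETH and 7.44 ± 0.77 in TAM. For the 4 genes the count ratios were 25.8 (214 against 6, counting interval 11.6 to 71) and 164.4 (1197 against 4, counting interval 64.1 to 604.4). With either YAPi TAM library left out the sum was not called in TAM, at log2 fold changes of 7.41 without replicate 1 (adjusted p 0.09) and 7.86 without replicate 2 (adjusted p 0.091), where the lone library is assumed to vary like the other group.

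Within YAPi, a comparison of TAM with ETH added after the data had been seen called 3 of the 10 genes, all SPRR2 genes and all higher, where 4.5% of the genes tested were called. The log2 fold changes were 3.60 ± 0.46 for SPRR2A (adjusted p 7.8e-13), 2.34 ± 0.28 for SPRR2D (adjusted p 6.5e-15) and 2.35 ± 0.60 for SPRR2E (adjusted p 0.0022). SPRR2E was not called by edgeR (adjusted p 0.038), in 1 fit over all groups (adjusted p 0.45) or with a replicate block (adjusted p 0.027). Its call was also lost with any 1 of the 4 libraries left out, at log2 fold changes between 1.71 and 2.80. For the sum the difference was 2.61 ± 0.25 (adjusted p 2.2e-23), a count ratio of 6.05 (counting interval 5.23 to 7.03). SPRR3 differed in the other direction without passing the test, by −1.36 ± 0.49 (adjusted p 0.085), and IVL by −0.53 ± 0.36 (adjusted p 0.75).

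Whether TAM acted differently in YAPi and in Ctrli was tested separately, on few counts in Ctrli. There SPRR1B had 20 counts in ETH and 6 in TAM (ratio 0.436, counting interval 0.143 to 1.12), and IVL had 13 in ETH and 0 in TAM (at least 2.98-fold lower, p 0.064, with no adjusted p given). The interaction of YAPi with TAM was called for 0 of the 10 genes by DESeq2, where 0.498% of the genes tested were called. SPRR1B, SPRR2D, IVL and TGM1 had unadjusted p-values of 0.034, 0.00087, 0.013 and 0.021 there, and edgeR also called 0 of them. The interaction of the SPRR2 sum was 2.69 ± 1.02 on the log2 scale (p 0.0087, adjusted p 0.4). At 4 and 6 counts in the Ctrli groups, a TAM effect on the SPRR2 sum in Ctrli was not measurable at this depth (count ratio 0.968, counting interval 0.201 to 4.08).

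**Figure D2:**
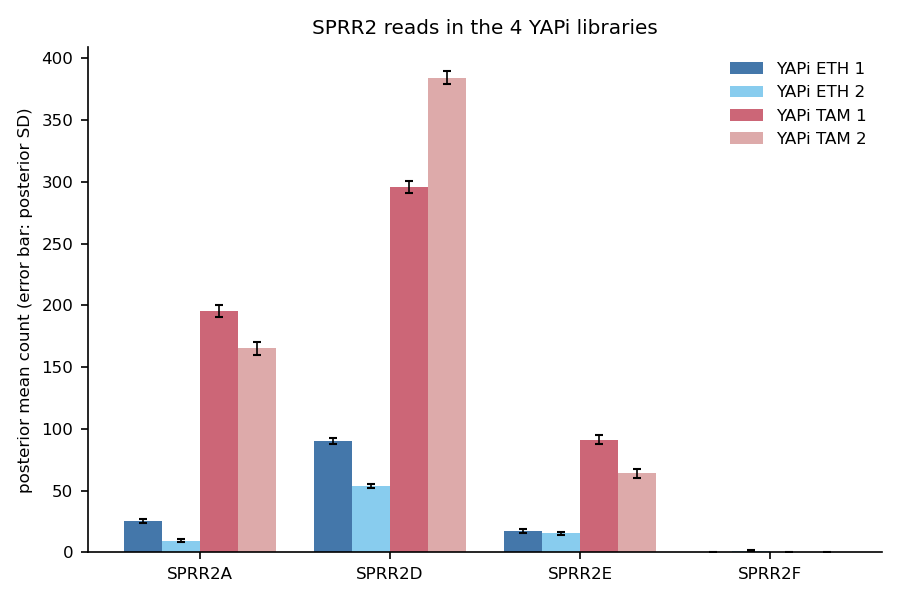
Posterior mean count of the 4 SPRR2 genes in the 4 YAPi libraries, with the posterior SD of the read division as error bars. SPRR2D holds the most reads in each library and SPRR2F has almost none.

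SPRR2D took 67.9% and 67.5% of the SPRR2 counts in YAPi ETH and 50.7% and 62.6% in YAPi TAM. The SPRR2A share was 19.3% and 11.7% in ETH and 33.6% and 27% in TAM, and the 2 treatments did not overlap. SPRR2E held 12.8% and 19.3% in ETH and 15.7% and 10.4% in TAM, with overlap. The posterior SDs were at most 5.31 counts for SPRR2D and 5.26 counts for SPRR2A. These SDs cover the division of reads within a library and not the spread between libraries, and the plotted counts are not scaled to depth. SPRR2G, a neighbouring family member singled out after its values were seen, was at 0.23 and 0.58 TPM in YAPi ETH and 0.51 and 0.27 TPM in YAPi TAM and did not exceed 0.07 TPM in the other ER-Src libraries.

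SPRR3, the family member typical of oral and esophageal epithelium, was highest in YAPi ETH, at 2.63 and 3.12 TPM, followed by YAPi TAM at 1.07 and 0.93 TPM. It was at 0 and 0.07 TPM in Ctrli ETH and at 0 TPM in Ctrli TAM. In ETH its ratio of counts was 115.6 (160 against 1, counting interval 20.5 to 4594, adjusted p 0.00012), and in TAM it was at least 11-fold higher (60 counts against 0, adjusted p 0.0028). The call in TAM was lost without either Ctrli library (adjusted p 0.14 and 0.067), and that in ETH without Ctrli ETH replicate 1 (adjusted p 0.01).

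IVL, the scaffold protein, had the same order. It stood at 1.75 and 2.12 TPM in YAPi ETH and at 1.14 and 1.23 TPM in YAPi TAM, against 0.11 and 0.13 TPM in Ctrli ETH and 0 TPM in Ctrli TAM. The log2 fold change in ETH was 4.00 ± 0.59 (adjusted p 7.4e-10), and in TAM IVL was at least 34.1-fold higher (186 counts against 0, adjusted p 6e-06), a call lost without Ctrli TAM replicate 1 (adjusted p 0.012). STAT3i TAM had the next count in TAM, 22 and 8, at 0.31 and 0.13 TPM (p 0.0095, with no adjusted p given).

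Leaving out 1 library at a time lowered the number of calls. The direction was kept, but with so few counts in Ctrli it could hardly have changed. In TAM the 7 calls became 3 without Ctrli TAM replicate 1, 5 without Ctrli TAM replicate 2 and 4 without either YAPi TAM library. In ETH the 5 calls became 3 without Ctrli ETH replicate 1 or YAPi ETH replicate 2. The SPRR1B call in TAM was lost without YAPi TAM replicate 1 or 2, at log2 fold changes of 6.64 and 6.85 (adjusted p 0.29 and 0.36), while its call in ETH was kept in all 4 fits. SPRR2E lost its call in TAM without Ctrli TAM replicate 1, Ctrli TAM replicate 2 or YAPi TAM replicate 1 (adjusted p 0.016, 0.011 and 0.04).

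TAZ depletion moved the precursors much less, and none of the 7 was called. DESeq2 gave an adjusted p only to SPRR1B in ETH and to none of the 7 in TAM, so the rest could not be called. In ETH, TAZi had 1.74 and 2.31 TPM of SPRR1B, both above the 0.52 and 0.8 TPM of Ctrli, with a log2 fold change of 1.41 ± 0.84 (adjusted p 0.37). IVL was at 0.33 and 0.29 TPM and SPRR3 at 0.33 and 0.34 TPM in TAZi ETH, and DESeq2 gave no adjusted p for either (p 0.23 and 0.15). The TAZi ETH count ratios to Ctrli were 5.14 for SPRR1A (counting interval 1.68 to 21) and 2.72 for SPRR1B (1.58 to 4.87). They were 10.9 for SPRR3 (1.51 to 477.3) and 2.42 for IVL (1.2 to 5.13). The intervals of SPRR2A (0.677 to 286.2) and SPRR2D (0.558 to 7.52) included 1, and SPRR2E had 0 counts in both groups. These intervals cover counting error only. The difference between the knockdowns was tested directly, also as a comparison added after the data had been seen. In TAM all 7 precursors called above were higher in YAPi than in TAZi, where 6.13% of the genes tested were called. Of these, SPRR3 lost its call in 1 fit over all groups (adjusted p 0.013) and without YAPi TAM replicate 2, TAZi TAM replicate 1 or TAZi TAM replicate 2 (0.23, 0.056 and 0.26). In ETH 5 of the 10 genes were called, where 4.25% of the genes tested were called, with SPRR1B, SPRR2D, SPRR3 and IVL higher and TGM1 lower in YAPi. These 5 calls became 1 without YAPi ETH replicate 1 and 2 without YAPi ETH replicate 2, TAZi ETH replicate 1 or TAZi ETH replicate 2. The SPRR2 sum differed by 6.98 ± 0.54 on the log2 scale in TAM (adjusted p 2.5e-35). In ETH it differed by 3.33 ± 0.64 (adjusted p 1.5e-05), and it was not called there without either YAPi ETH library (adjusted p 0.038 and 0.051) or without TAZi ETH replicate 1 (adjusted p 0.016).

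In the DESeq2 runs for each comparison, no precursor was called in STAT3i or JUNBi. In STAT3i TAM, JUNBi TAM and JUNBi ETH only 1 of the 10 genes, TGM1, had an adjusted p. No precursor could therefore be called there, and these runs do not show that the precursors were unchanged. In 1 fit over all groups, IVL was called higher in STAT3i TAM (log2 fold change 5.34, adjusted p 0.009). STAT3i TAM held 0.52 and 0.63 TPM of SPRR2D, above every Ctrli library, and its counts of 22 against 0 made it at least 3.89-fold higher (p 0.021, with no adjusted p given). The SPRR2 sum in STAT3i TAM was 0.62 and 0.87 TPM, a log2 difference from Ctrli of 2.13 ± 1.53 (p 0.16). In JUNBi the SPRR2 sum did not exceed 0.27 TPM and SPRR1A was at 0 counts in all 4 libraries. Over all genes tested, 8.22% were called in STAT3i TAM, 6.9% in JUNBi TAM, 0.189% in STAT3i ETH, 2.8% in JUNBi ETH and 3.42% in TAZi TAM. None of the 10 genes was called in TAZi TAM, STAT3i ETH or JUNBi ETH, where 1, 5 and 1 of them had an adjusted p. The unadjusted p was under 0.05 for TGM1 in each of these 3 comparisons (0.0057, 0.037 and 0.0013), and edgeR also called 0 genes there.

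TGM1, the cross-linking enzyme, behaved differently from its substrates. It was present in every ER-Src library, between 8.29 and 27.2 TPM, and it was highest in TAZi ETH and JUNBi ETH. Ctrli had 10.8 and 11.1 TPM in ETH and 13.1 and 14.4 TPM in TAM. TAZi had 25.8 and 25 TPM in ETH and 12.6 and 13.3 TPM in TAM, and JUNBi had 24.1 and 27.2 TPM in ETH and 10.3 and 10.2 TPM in TAM. YAPi, in which the precursors were high, had 10.4 and 11 TPM in ETH and 12.7 and 13.6 TPM in TAM, next to the Ctrli values. In STAT3i it was 8.29 and 11.4 TPM in ETH and 11.7 and 11.2 TPM in TAM.

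**Figure D3:**
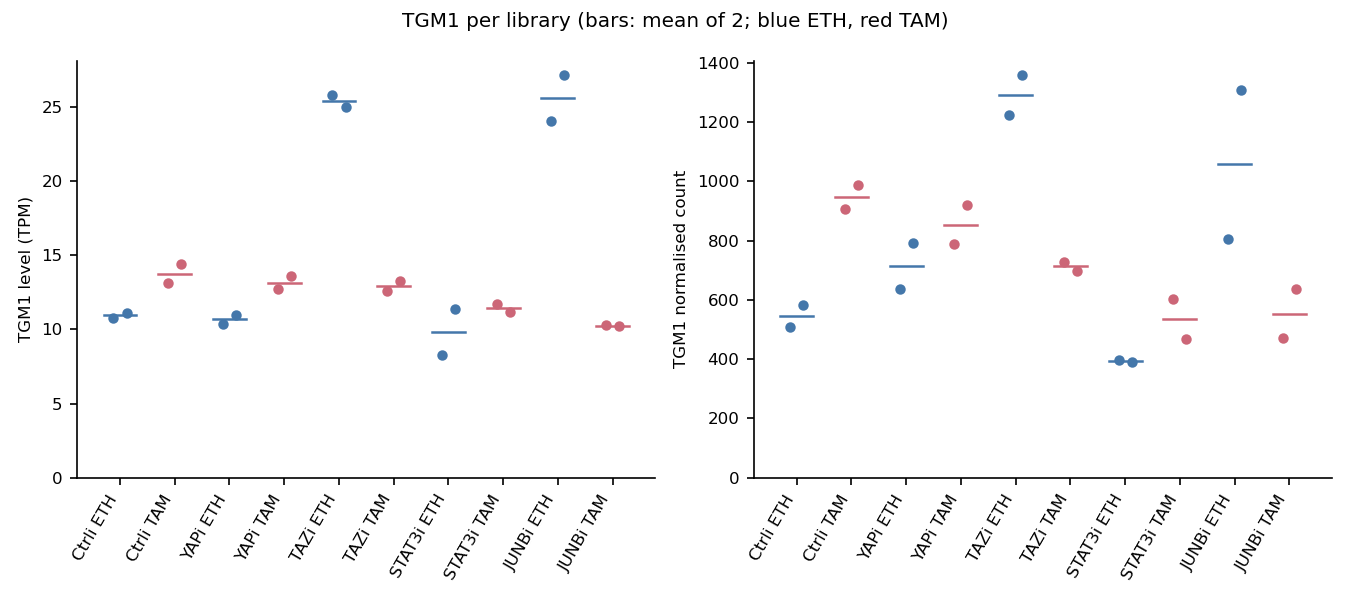
TGM1 in the 20 ER-Src libraries, as TPM on the left and as counts divided by size factors on the right, both axes from 0. Points are libraries, bars the mean of 2, blue is ETH and red is TAM. TAZi ETH and JUNBi ETH have the highest means on both scales, and the 2 JUNBi ETH libraries lie farther apart on the right.

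In ETH, TGM1 was called higher in TAZi, by 1.24 ± 0.16 on the log2 scale (adjusted p 6.1e-13). It was the only member called, of 2 with an adjusted p, where 5.24% of the genes tested were called. In JUNBi ETH the difference was 0.94 ± 0.29 (adjusted p 0.032), which did not pass the threshold of 0.01. It did pass in 1 fit over all ER-Src groups (adjusted p 0.00029) and without JUNBi ETH replicate 1 (adjusted p 9.8e-07). TAM against ETH in Ctrli called TGM1 higher, by 0.81 ± 0.16 (adjusted p 3.2e-05). It was the only member called, of 2 with an adjusted p, where 6.21% of the genes tested were called. In TAM it was called lower in STAT3i, by −0.80 ± 0.18 (adjusted p 0.00032), and in JUNBi, by −0.75 ± 0.19 (adjusted p 0.0016). Each of these 3 calls depended on single libraries. The TAM call in Ctrli was lost without any 1 of the 4 libraries (adjusted p between 0.012 and 0.11), the STAT3i call without Ctrli TAM replicate 1, Ctrli TAM replicate 2 or STAT3i TAM replicate 2 (0.052, 0.11 and 0.095), and the JUNBi call without Ctrli TAM replicate 1, Ctrli TAM replicate 2 or JUNBi TAM replicate 1 (0.12, 0.23 and 0.37).

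The size of these differences depended on the scale. The ratio of mean TGM1 levels of TAM to ETH in Ctrli was 1.25 in TPM and 1.74 in normalised counts. For STAT3i against Ctrli in TAM it was 0.833 and 0.564, and for JUNBi 0.745 and 0.584. TAZi against Ctrli in ETH gave 2.31 and 2.37, and JUNBi gave 2.34 and 1.94. YAPi against Ctrli in ETH was 0.979 in TPM and 1.31 in normalised counts, so its direction differed between the scales, and it was not called (log2 fold change 0.38 ± 0.18, adjusted p 0.14).

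The effect of TAM on TGM1 differed between knockdown and control for TAZi and for JUNBi. The interaction on the log2 scale was −1.66 ± 0.20 for TAZi (adjusted p 9.8e-14), where 1.6% of the 4424 genes tested were called. It was −1.72 ± 0.36 for JUNBi (adjusted p 0.00099), where 0.288% of 15949 were called. Independent filtering kept fewer genes for TAZi, so these shares cover unlike sets of genes. For TAZi, DESeq2 gave TGM1 no adjusted p with TMM size factors or without TAZi TAM replicate 1, so neither fit called it. For JUNBi the call was lost with edgeR (adjusted p 0.26) and when any 1 of 5 libraries was left out, the 4 Ctrli libraries and JUNBi TAM replicate 1 (adjusted p between 0.027 and 0.099). For YAPi the interaction was −0.53 ± 0.23 (adjusted p 0.68) and for STAT3i −0.36 ± 0.27, which was not called, where 1.34% of the genes tested were called. No other member was called in any interaction, and in those of TAZi and JUNBi only TGM1 had an adjusted p.

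CNFN was low in the ER-Src line and had its highest levels in MDA-MB-231 set 2. In ER-Src it was at 0.68 and 0.91 TPM in YAPi ETH and 0.76 and 0.84 TPM in YAPi TAM, against 0.08 and 0.32 TPM in Ctrli ETH and 0.35 and 0.4 TPM in Ctrli TAM. The YAPi values lay above those of Ctrli, but on 25 and 28 counts against 5 and 7 the count ratios were 3.61 in ETH (counting interval 1.36 to 12.1) and 2.2 in TAM (counting interval 0.938 to 5.96). DESeq2 gave no adjusted p for it in either (p 0.17 and 0.38). JUNBi ETH overlapped YAPi at 0.68 and 0.53 TPM.

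**Figure D4:**
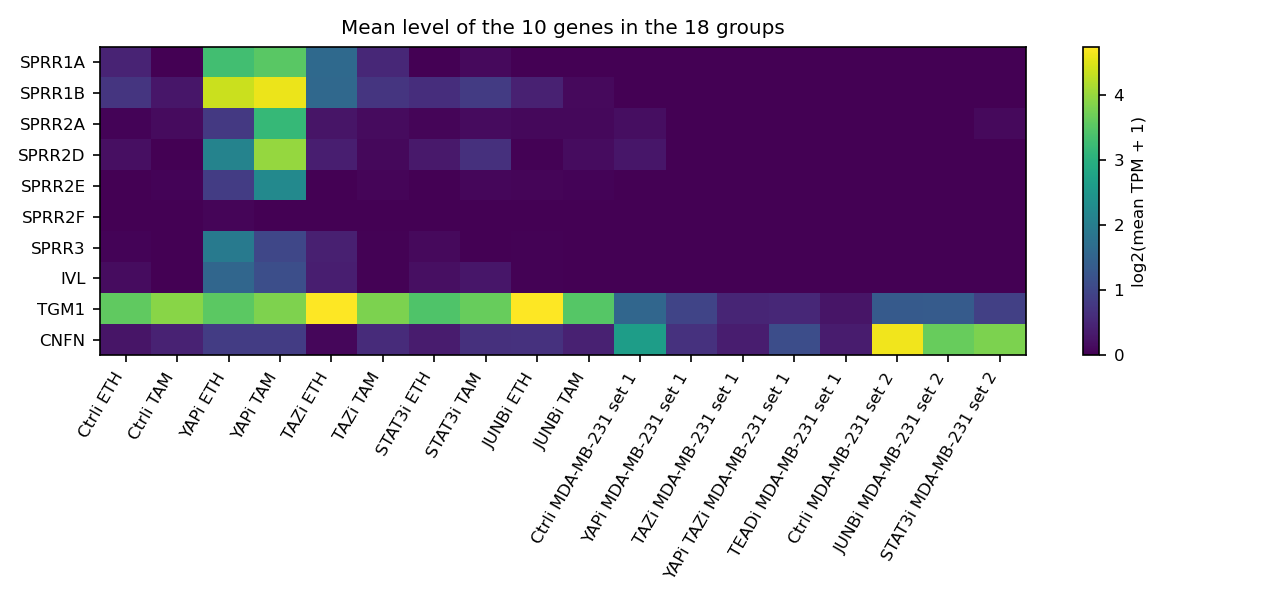
Mean level of the 10 genes in the 18 groups, as log2(mean TPM + 1) of 2 libraries each. SPRR1A, SPRR1B, SPRR2A, SPRR2D, SPRR2E, SPRR3 and IVL are highest in the 2 YAPi groups of ER-Src, TGM1 is high in all ER-Src groups, and CNFN in MDA-MB-231 set 2 and the set 1 controls. Levels were not tested across the cell lines or sets.

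In the 16 MDA-MB-231 libraries, 6 of the 10 genes, SPRR1A, SPRR1B, SPRR2E, SPRR2F, SPRR3 and IVL, had no count at all. The SPRR2 sum had at most 3 counts. CNFN stood at 16.8 and 31.2 TPM in set 2 Ctrli, at 9.4 and 13.6 TPM in JUNBi and at 14.8 and 11.1 TPM in STAT3i, and in set 1 Ctrli at 3.43 and 6.96 TPM. Both knockdowns of set 2 lay below both controls, with log2 differences of −1.43 ± 0.54 for JUNBi (p 0.0078) and −1.12 ± 0.56 for STAT3i (p 0.045), and DESeq2 gave no adjusted p for either. TGM1 was between 0.73 and 1.99 TPM in set 2.

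The set 1 knockdowns could not be compared well at these levels. Their libraries held 1411300 to 2784553 counts, against 13456764 and 13534549 in their controls, and the first replicate of each had 48.5% to 53.4% of its TPM in genes under 120 bases, against 1.75% to 1.94% in the second and 1.08% to 1.11% in the controls. CNFN had between 0 and 2 counts and TGM1 between 0 and 3 counts in each knockdown library. Only CNFN and TGM1 had an adjusted p, and neither was called. Of the genes tested, 24.4% were called in YAPi, 32.8% in TAZi, 35.6% in YAPi_TAZi and 27.5% in TEADi. In set 2, 3.41% of the 7966 genes tested were called in JUNBi and 0.497% of 2013 in STAT3i. There 0 members had an adjusted p, so none could be called. Across the MDA-MB-231 comparisons the unadjusted p of a member was under 0.05 only for CNFN in the 2 comparisons of set 2, and edgeR called 0 members.

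The other genes of the envelope and of keratinocyte differentiation were counted in lists chosen with earlier results known. Of 22 other envelope proteins, 10 had an adjusted p in YAPi against Ctrli in TAM, of which 6 were called higher and 0 lower, where 5.27% of all genes tested were called higher. In ETH 9 had one, of which 5 were called higher and 0 lower, where 5.11% of all genes tested were called higher. SBSN, a secreted protein of suprabasal cells, was higher by 3.91 ± 0.36 on the log2 scale in ETH and by 3.86 ± 0.41 in TAM. PI3, which encodes the elastase inhibitor elafin, a transglutaminase substrate, was higher by 2.63 ± 0.16 and 2.89 ± 0.44. PPL, the plakin periplakin, was called higher in TAM (1.75 ± 0.16) and not in ETH (0.43 ± 0.15, adjusted p 0.03), with a called interaction of 1.31 ± 0.21 (adjusted p 5.6e-07). SCEL, the precursor sciellin, was higher by 3.17 ± 0.58 in TAM, where 1.41 ± 0.48 in ETH did not pass (adjusted p 0.024). FLG and HRNR, of the filaggrin family, were called higher in ETH, by 1.99 ± 0.51 and 1.35 ± 0.33, and stood at 0.24 ± 0.68 and −0.14 ± 0.36 in TAM (adjusted p 0.89 and 0.87). Neither interaction was called, at adjusted p-values of 0.71 for FLG and 0.095 for HRNR. Calls were not confined to YAPi. FLG, HRNR and PPL were called higher in TAZi ETH, 3 of 8 with an adjusted p, where 5.24% of all genes tested were called. PPL and SCEL were called higher in STAT3i TAM (2 of 8, against 8.22%). PPL was also called higher in JUNBi TAM (1 of 6, against 6.9%) and JUNBi ETH (1 of 9, against 2.8%). TAZi TAM and STAT3i ETH had 0 calls.

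**Figure D5:**
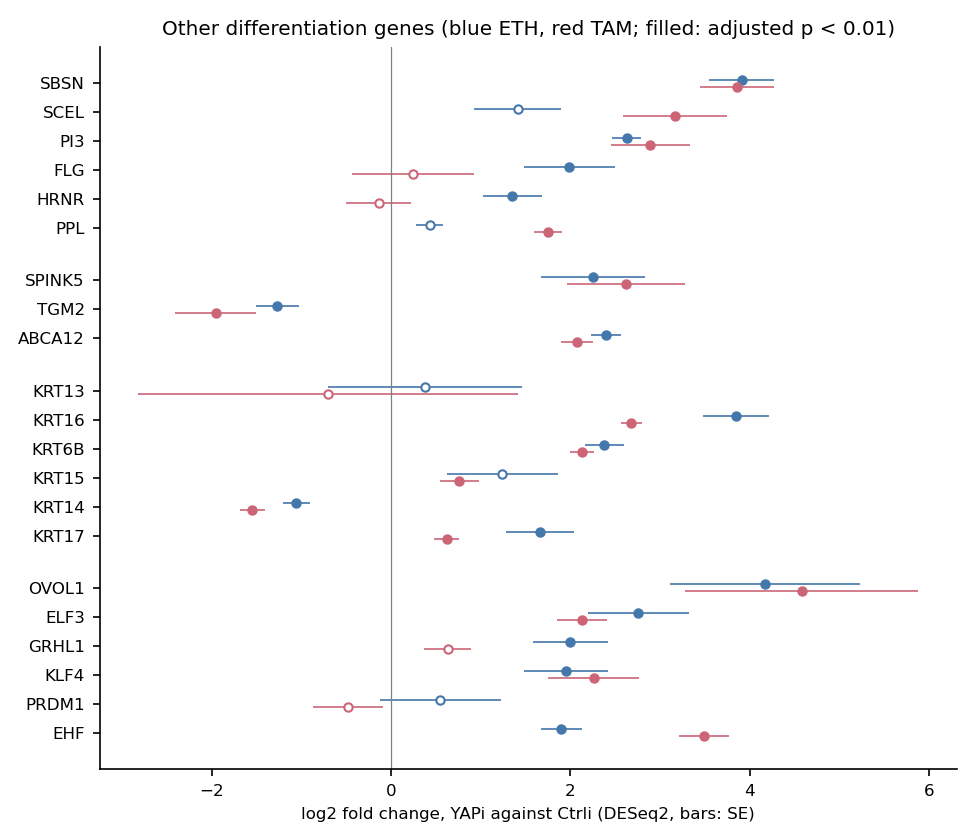
DESeq2 log2 fold change of YAPi against Ctrli for the differentiation genes of the 4 lists that were called in at least 2 of 9 ER-Src comparisons (at most 6 a list), with SE as bars, blue for ETH and red for TAM. Filled points passed an adjusted p of 0.01. SBSN, PI3, SPINK5, ABCA12, KRT16, KRT6B, KRT17, OVOL1, ELF3, KLF4 and EHF are filled and above 0 in both treatments, and TGM2 and KRT14 filled and below 0 in both.

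Among 10 cross-linking and lipid envelope enzymes, 4 had an adjusted p in YAPi ETH, of which 3 were called higher and 1 lower, and 3 had one in YAPi TAM, of which 2 were called higher and 1 lower (11.6% and 10.7% of all genes tested were called in these comparisons). ABCA12, the keratinocyte lipid transporter, rose by 2.40 ± 0.17 and 2.07 ± 0.18, and SPINK5, a serine protease inhibitor, by 2.25 ± 0.58 and 2.62 ± 0.66. TGM2, the widely expressed tissue transglutaminase, fell by 1.27 and 1.96 on the log2 scale (SE 0.24 and 0.45), while TAM raised it by 3.70 ± 0.13 in Ctrli. TGM3, the epidermal transglutaminase, was the other enzyme called higher in YAPi ETH. ABCA12 was also called higher in TAZi in both treatments, and TGM2 was also called lower in STAT3i TAM and JUNBi TAM. No enzyme of the list was called in STAT3i ETH or JUNBi ETH.

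Of 11 keratins, 9 had an adjusted p in YAPi ETH, of which 3 were called higher and 1 lower, and 8 had one in YAPi TAM, of which 5 were called higher and 1 lower (11.6% and 10.7% of all genes tested were called). KRT16, a keratin of activated suprabasal cells, rose by 3.85 ± 0.37 in ETH and 2.68 ± 0.12 in TAM, KRT6B by 2.38 ± 0.22 and 2.13 ± 0.13, and KRT17 by 1.66 ± 0.38 and 0.62 ± 0.14. KRT14, the basal layer keratin, fell by 1.06 and 1.55 on the log2 scale (SE 0.15 and 0.14). KRT15, another basal keratin, was called higher in TAM (0.76 ± 0.22, adjusted p 0.0045). KRT13 was not called in YAPi (0.38 ± 1.08 in ETH). In TAZi ETH 5 of 8 keratins with an adjusted p were called higher, KRT14 among them, and 0 lower (5.24% of all genes tested were called). TAZi TAM had 2 higher and 0 lower of 8 (3.42%). STAT3i TAM had 1 higher and 4 lower of 8 (8.22%), and STAT3i ETH had 0 calls. JUNBi TAM had 1 higher and 3 lower of 9 (6.9%), and JUNBi ETH 3 higher and 1 lower of 10 (2.8%).

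Of 20 regulators of keratinocyte differentiation, 18 had an adjusted p in YAPi ETH, of which 10 were called higher and 0 lower, and 19 had one in YAPi TAM, of which 7 were called higher and 0 lower (5.11% and 5.27% of all genes tested were called higher). OVOL1, a zinc finger transcription factor, was higher by 4.17 ± 1.06 in ETH and 4.58 ± 1.30 in TAM. KLF4, a barrier transcription factor, was higher by 1.95 ± 0.47 and 2.26 ± 0.51, and the epithelial ETS factors ELF3 and EHF by 2.76 ± 0.56 and 2.13 ± 0.28 and by 1.90 ± 0.23 and 3.49 ± 0.28. GRHL1 was higher by 2.00 ± 0.42 in ETH, and PRDM1 was not called in either (adjusted p 0.69 and 0.5). In TAZi, 6 of 16 in ETH and 3 of 15 in TAM were called higher and 0 lower (5.24% and 3.42% of all genes tested were called). JUNBi had 3 higher and 0 lower of 16 in ETH (2.8%), and 4 higher and 3 lower of 15 in TAM (6.9%). STAT3i TAM had 1 higher and 5 lower of 15 (8.22%), and STAT3i ETH had 0 calls. EHF was called higher in each of these groups except STAT3i ETH. TAM against ETH in Ctrli called 6 of 16 regulators with an adjusted p higher, ELF3 by 4.05 ± 0.48 among them, and 0 lower, where 6.21% of all genes tested were called.

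Outside the 10 genes, those whose level ran most like the SPRR2 sum over the 10 ER-Src group means of log2(TPM + 1), among 2326 genes that averaged at least 5 TPM and ranged over at least 1 log2 unit, were an 89-base miRNA gene listed as ENSG00000278791 (Pearson r 0.991), SH3BGRL3 (0.946), S100A7 (0.921), PI3 (0.918) and GALNT6 (0.915). S100A7, psoriasin, lies in the same complex of chromosome 1 and averaged 26.1 TPM in YAPi ETH and 313.8 TPM in YAPi TAM, against 2.07 and 3.92 TPM in Ctrli. These correlations are a description over 10 groups that share controls and libraries. The SPRR2 sum did not exceed 0.87 TPM in the ER-Src libraries other than YAPi, so each r rests mainly on the YAPi groups. ENSG00000278791 averaged 9.16 TPM in YAPi ETH, 55.2 TPM in YAPi TAM and 0 TPM in every other group. It passed the filter of 5 TPM only through YAPi, as did S100A7, which averaged at most 9.37 TPM in the other groups. Among the members r with the sum was 0.903 for SPRR1A, 0.933 for SPRR1B, 0.740 for SPRR3, 0.845 for IVL, 0.632 for CNFN and −0.135 for TGM1.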

How the data were processed

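RNA was measured by sequencing of 36 libraries from 2 established breast cell lines, 2 libraries in each of 18 groups named by the labels. The authors trimmed adapters, aligned reads with STAR to GENCODE release 30 on hg38 and estimated gene levels with RSEM. The deposited tables hold expected counts and TPM for each library. Expected counts spread reads that fit several genes in proportion, which bears on the near-identical SPRR2 genes, and TPM depends on the very short genes in a library. TPM is shown as levels. Expected counts were rounded to whole numbers and tested with DESeq2 1.42.0 in R 4.3.3, two-sided. There was 1 run per comparison, with default size factors and independent filtering. Benjamini-Hochberg adjustment covered the genes kept by that filtering, from 2013 to 19578 in a comparison. A gene was called at an adjusted p under 0.01. An adjusted p that DESeq2 did not give was left missing. Ratios of summed counts carry 95% exact intervals, and a group at 0 was set to 3 counts. Of the comparisons, 19 were planned and 3 were added after the data were seen.

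The members and gene lists were chosen with earlier results of these data known. All 10 members are named, and from each list at most 6 genes called in at least 2 of 9 ER-Src comparisons, those of largest mean absolute log2 fold change first. Alternatives were edgeR 4.0.16 (quasi-likelihood), TMM size factors, a mean count of at least 10, 1 fit over all groups, a replicate block and leaving out each library. The code was tested on simulated data. Positions and coding sequences come from GENCODE release 44, promoters from RefSeq. Depth is given with the results as ranges for the ER-Src and MDA-MB-231 set 1 libraries.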

Additional observations from a re-analysis of the deposited data

Results flagged for a closer look

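TGM1 was the member for which the effect of TAM differed between a knockdown and the control by a test of the difference itself. It was also the only member with an adjusted p in the TAZi and JUNBi interactions. For TAZi the interaction was −1.66 ± 0.20 on the log2 scale (SE, DESeq2 adjusted p 9.8e-14). TGM1 was 25.8 and 25 TPM in TAZi ETH and 12.6 and 13.3 TPM in TAZi TAM, against 10.8 and 11.1 TPM in Ctrli ETH and 13.1 and 14.4 TPM in Ctrli TAM, so it was lower with TAM in TAZi and higher with TAM in Ctrli.

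For JUNBi the interaction was −1.72 ± 0.36 (adjusted p 0.00099), with 24.1 and 27.2 TPM in ETH and 10.3 and 10.2 TPM in TAM. This call was lost with edgeR (adjusted p 0.26) and in 5 of 8 fits that left out 1 library (adjusted p between 0.027 and 0.099). Both interactions use the same 4 Ctrli libraries.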

How the results depend on the processing

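No result changed direction with its call. With TMM size factors the interaction of TAZi with TAM had 0 members called, and with edgeR that of JUNBi had 0 (TGM1 −1.73, adjusted p 0.26). With 1 fit over all groups, STAT3i TAM had 2 members called, IVL being added (5.34, adjusted p 0.009), and JUNBi ETH had 1. Replicate numbers are shared across groups, but the labels do not say that they mark a batch, and the correlation of same-numbered deviations ran from −0.069 to 0.501. With the replicate block, YAPi TAM had 4 members called in place of 7 (SPRR2D adjusted p 0.11, IVL 0.27) and JUNBi ETH had 1. The block could not be fitted in set 2.

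Leaving out 1 library at a time gave 0 to 0 members called for TAM against ETH in Ctrli, 3 to 5 for YAPi TAM, 0 to 1 for STAT3i TAM, JUNBi TAM, JUNBi ETH and the interactions of TAZi and JUNBi, 3 to 4 for YAPi ETH and 1 to 2 for YAPi against TAZi in ETH. The SPRR2 sum ranged from 6.73 to 10.47 in YAPi TAM and from 3.11 to 3.58 in YAPi against TAZi in ETH. These refits were not run for MDA-MB-231 set 1. The cause of these changes was not tested. At 0 to 6 counts of most precursors in Ctrli, depth limits every fold change of YAPi.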
